A study of Caenorhabditis elegans with 3 samples.

Results

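The mevalonate and ubiquinone synthesis genes of Caenorhabditis elegans described here are 10 genes, taken by symbol out of 19985 protein-coding genes in the WBcel235 annotation. They are hmgs-1, hmgr-1, fdps-1, coq-1, coq-2, coq-3, coq-4, coq-6, coq-8 and clk-1. The group was chosen by measured values, since hmgs-1 has one of the strongest promoter peaks of the experiment, so the peaks of these genes are given as a description and without a test. The experiment was a chromatin immunoprecipitation with sequencing (ChIP-seq) against the product of R02D3.7, a gene now named rcat-1, carrying a green fluorescent protein tag (eGFP). The animals were whole L4 larvae of the strain OP218, which carries unc-119(ed3) III and the insertion wgIs218. The sources used here label them as males and females pooled. There was 1 group, of 3 biological replicates. Replicates 1 and 2 are labelled with a fragment size range of 150 to 350 and with the CGC, the stock centre for this worm, as source. Replicate 3 is labelled with sonication by a generic microtip and with the Michael Snyder laboratory as source. The tagged copy comes from an insertion, and the promoter that drives it is not given in the sources used here. All tissues of the larva were mixed, so strong binding in few cells and weak binding in many cannot be told apart.

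The mevalonate pathway turns acetyl-CoA into isoprenoid units. HMG-CoA synthase (hmgs-1) and HMG-CoA reductase (hmgr-1) carry out its early steps, and farnesyl diphosphate synthase (fdps-1) joins the units into chains. Worms do not make sterols, so the chains serve the prenylation of proteins, dolichol and the side chain of ubiquinone, the electron carrier of the mitochondrial inner membrane. In ubiquinone synthesis coq-1 encodes the enzyme that extends the side chain and coq-2 the one that attaches it to the ring. The methyltransferase gene coq-3, the monooxygenase gene coq-6 and clk-1, the homologue of COQ7, encode enzymes that modify the ring, while the yeast homologues of coq-4 and coq-8 organise and maintain the enzyme complex.

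The sequences on which the results turn are shown first, as + strand unless stated, in ce11 coordinates (the WBcel235 sequence). Capitals mark copies of the 6 letters CGTAAA on either strand, so a copy on the - strand reads TTTACG. The first run is the whole stretch between the starts of hmgs-1 (to its left, transcribed leftward) and F25B4.4 (to its right), chrV:5684590-5684872, and holds 2 copies.
hmgs-1/F25B4.4: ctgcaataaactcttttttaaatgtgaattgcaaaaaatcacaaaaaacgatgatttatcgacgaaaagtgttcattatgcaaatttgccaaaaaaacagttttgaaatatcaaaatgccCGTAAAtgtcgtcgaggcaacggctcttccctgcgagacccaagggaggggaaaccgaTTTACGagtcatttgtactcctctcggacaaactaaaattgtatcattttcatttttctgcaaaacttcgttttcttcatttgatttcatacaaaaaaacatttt
The next is the 101 bp round the pooled summit upstream of hmgr-1, chrIII:7359140-7359240, which holds none and is shown for contrast.
hmgr-1: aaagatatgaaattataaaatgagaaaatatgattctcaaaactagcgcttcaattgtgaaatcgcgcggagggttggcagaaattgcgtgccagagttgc
The last are 30 bp at or next to the summits of the strongest peaks next to coq-3 and at fnta-1, a prenylation gene outside the group. They lie at chrIV:14797501-14797530, within nuo-3 near its starts, and, read on the - strand, at chrIV:240511-240540.
nuo-3: gtgctgCGTAAAtcgacacactcgatcgcg
fnta-1: gctgccCGTAAAtccacatgagagccggag

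The deposited data are peak lists, in which each peak carries a summit, a −log10 q value and a signal, the strength that the authors' caller gave it. The authors' thresholded list held 390 peaks, 364 of them on nuclear chromosomes, the pooled list 11533, and the lists of replicates 1, 2 and 3 held 27624, 28357 and 30000. Per the deposited descriptions the pooled and replicate lists hold background as well as peaks, and every entry is called a peak here. The lowest −log10 q was 0.018 in the pooled list and 0.018, 0.018 and 0.025 in replicates 1, 2 and 3. Signal was read within a list only, because its scale is not common to the lists. The lists hold no read counts, so the depth is unknown and no signal has a counting error. Peaks were called promoter peaks where the summit stood no more than 1000 bp upstream or 200 bp downstream of any annotated start of a gene, and a rank of 1 is the strongest peak of a list. The weakest thresholded peak had a signal of 35.57 at rank 390 and the strongest pooled peak outside that list 35.55 at rank 391.

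A single member, hmgs-1, had a thresholded promoter peak, beside 2.05% of all protein-coding genes. In the pooled list 6 of the 10 had a promoter peak, beside 21.6% of all genes. These were hmgs-1, hmgr-1, coq-1, coq-3, coq-4 and coq-6. All but hmgs-1 had a pooled −log10 q between 0.099 (coq-4) and 0.638 (coq-3), where every thresholded peak had 2.93. Such entries may be background. Apart from hmgs-1, their pooled signals lay between 11.8 and 17.4, and the median of the strongest promoter peak over the 4316 genes that have one was 14.5 (quartiles 12.03 and 19.9). In each replicate list 7 of the 10 had a promoter peak, beside 39.3%, 37.4% and 40.8% of all genes in replicates 1, 2 and 3. The 4 genes hmgs-1, hmgr-1, fdps-1 and coq-3 had one in all 3 replicates, beside 14.9% of all genes, and each of the 10 had one in at least 1 replicate, beside 66.9%. The members were chosen on these lists, so nothing is read from the counts. The pooled list was also called on the same reads as the replicates, so the lists are not independent of each other.

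**Figure D1:**
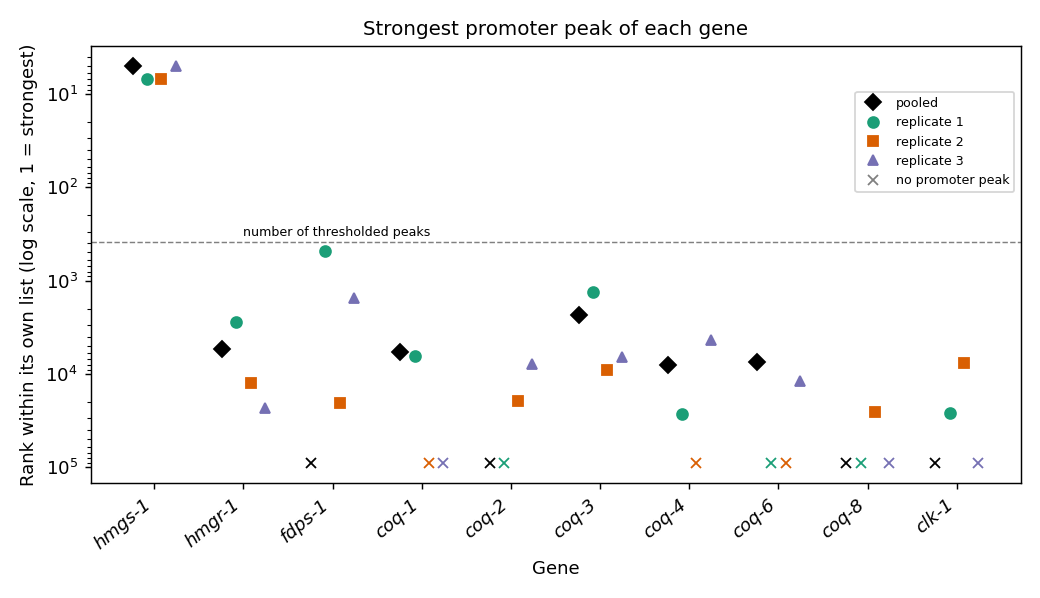
Rank of the strongest promoter peak of each gene within the pooled list and each replicate list (vertical axis, log scale, rank 1 at the top), with crosses at the bottom where a list held no promoter peak. The 4 points of hmgs-1 lie at ranks 5 to 7, above the dashed line at 390 peaks, and every point of the other genes lies below that line.

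The peak of hmgs-1, the gene for HMG-CoA synthase (WBGene00017769, chromosome V from 5682721 to 5684589, - strand), was the 5th strongest of the experiment. It lay on chromosome V from 5684403 to 5684980, was 578 bp wide and had a signal of 519 in the thresholded and the pooled list, 57.6% of the strongest peak. That strongest peak, with a signal of 901, has the start of rcat-1, the tagged gene, as the nearest in its window. The part of the insertion in its signal was not tested. The signal of the hmgs-1 peak was 199 at rank 7 in replicate 1, 112 at rank 7 in replicate 2 and 211 at rank 5 in replicate 3. These were 48.6%, 60.5% and 62.7% of the strongest peak in the same replicate. The ranks were close in the 3 lists, but the gene was chosen for its strong peak, so no support is drawn from them. The labels of replicate 3 differ from the others in fragmentation and source. The −log10 q of 3.20, 2.85 and 3.00 was in each case the highest value that the list holds, but weaker peaks share such a top value. The peak at rank 483 of replicate 1 also had 3.20, that at rank 251 of replicate 2 also had 2.85, and all 390 thresholded peaks had 2.93. Peaks next to that of hmgs-1 in rank were close in strength. In the pooled list the peaks one rank above and below had signals of 594 and 515, and in replicate 1 the peak one rank above had 199.3 where hmgs-1 had 198.5. The signals have no counting error, so how certain any of these ranks is cannot be given.

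Replicate summits fell close together. They lay 138, 155 and 151 bp upstream of the hmgs-1 start in replicates 1, 2 and 3, a mean of 148 bp ± 8.89 (SD, n = 3) and a range of 17 bp. The pooled summit lay at 147 bp. Replicate 2 alone held a further peak in the window, with a signal of 17.0 at rank 251 and a summit in a coding exon of F25B4.4.

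Which gene the hmgs-1 peak belongs to is not settled by its position. F25B4.4 starts 284 bp away and is transcribed in the opposite direction. It is annotated by RefSeq as an Elongator complex protein 6. The pooled summit was 137 bp from its start and 147 bp from that of hmgs-1. In replicates 2 and 3 F25B4.4 was also the nearer gene (129 against 155 bp and 133 against 151 bp), whereas in replicate 1 hmgs-1 was nearer (138 against 146 bp). The summits lay 5 bp (pooled) and 4, 13 and 9 bp (replicates 1, 2 and 3) from the midpoint of the 2 starts. On the other side, the splicing factor gene prp-39 follows hmgs-1 on the same strand after 90 bp.

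**Figure D2:**
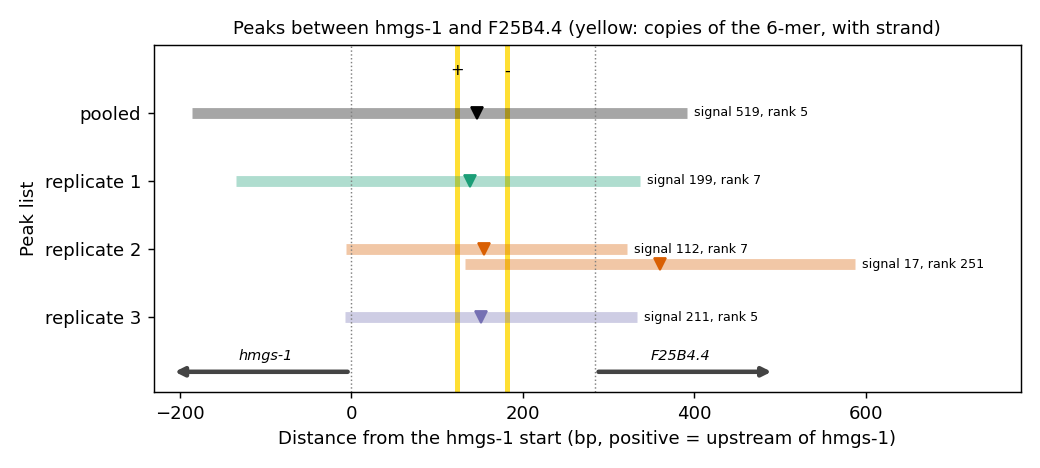
Peaks (bars) and their summits (triangles) between hmgs-1 and F25B4.4 in the pooled list and in each replicate, against the distance in bp from the hmgs-1 start, with dotted lines at both starts and yellow bands at the copies of the 6 letters. The strongest summit of each list falls between the 2 bands, and replicate 2 has a weaker peak inside F25B4.4.

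The sequence under the summit held 2 copies of CGTAAA, letters known from earlier results of these data. The copies, capitalised in the run between hmgs-1 and F25B4.4, face each other. The + strand copy lies at 5684710 to 5684715 and the - strand copy at 5684768 to 5684773, with 52 bp between them. The pooled summit was 21 bp from the first and 32 bp from the second. All 3 replicate summits lay between the copies, at 12 and 41 bp from them in replicate 1, 29 and 24 bp in replicate 2 and 25 and 28 bp in replicate 3. The - strand copy extends to the 8 letters CGTAAATC and the + strand copy does not.

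How usual these letters are was counted on both strands, with matches of one motif free to overlap those of another. CGTAAA stood within 50 bp of the summit at 48.1% of the 364 thresholded nuclear peaks, at 7.45% of the 11507 pooled nuclear peaks, and in 12.9% of 19973 promoters, each the 250 bp before a start and the 50 bp after it. CGTAAATC stood at 40.9%, 3.46% and 1.74% of the same sets. The summit windows were 101 bp long and the promoter windows 300 bp, so the shares of summits and of promoters are not directly comparable. Of the 364 thresholded summits 164 held 1 copy of CGTAAA, 11 held more and 189 held none. A + strand copy followed by a - strand copy, with no other, was found at 3 summits. These were the peaks at rank 4 (rbc-2, signal 594), rank 5 (hmgs-1, 519) and rank 30 (cyn-4, 233), with 76, 58 and 70 bp from the first base of one copy to that of the other. This arrangement was looked for after the hmgs-1 sequence had been seen, and a match of letters is a description of the sequence and no evidence of a bound site.

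Among the 10 promoters that of hmgs-1 alone held CGTAAA. Of the 6 pooled summits of members, that of hmgs-1 held it and those of hmgr-1, coq-1, coq-3, coq-4 and coq-6 did not. Another 3 motifs known from earlier results were searched. CGACAC, found in 7.0% of all promoters, was in 0 of the 10. ACACTC, found in 10.03%, was in 0, and ACGCGC, found in 5.92%, was in 0. Within 50 bp of the pooled summit the share of G and C was 54.5% at coq-4, 47.5% at hmgs-1, 38.6% at hmgr-1 and coq-1, 30.7% at coq-3 and 21.8% at coq-6. The 10 promoters ranged from 29.3% (clk-1) to 37.7% (hmgs-1 and coq-8).

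The peaks most like that of hmgs-1 in rank over the 3 replicates were found by distance in log10 rank, among the 318 of 345 thresholded promoter peaks that had a summit of every replicate inside. The nearest was that of sco-1, which encodes an assembly factor of cytochrome c oxidase. It covered 4299162 to 4299770 of chromosome II and had a signal of 515, ranks of 6, 5 and 7 and a distance of 0.217. The peak of rbc-2, in a window shared with the complex I gene ndua-8 and with Y54F10AM.15, had ranks of 4, 6 and 4 and a distance of 0.270. That of gtsf-1, a gene of the small RNA pathways, had ranks of 5, 9 and 9 and a distance of 0.314. Of the 318 peaks, 7 stood among the 10 strongest of every replicate, so likeness in rank here says only that a peak is among the strongest.

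The gene for HMG-CoA reductase, hmgr-1 (WBGene00017268, chromosome III from 7359498 to 7362129, + strand), had a weak peak. The pooled peak, from 7358975 to 7359404, had a signal of 13.4 at rank 5345 and a −log10 q of 0.21, and its summit lay 308 bp upstream in intergenic sequence. Replicate 1 had a summit at the same base, with a signal of 8.04 at rank 2799. Replicate 2 had its peak 927 bp upstream in a coding exon of eco-1, with a signal of 4.24 at rank 12637, and replicate 3 had its peak 530 bp upstream in an intron of eco-1, with 2.78 at rank 23181. The 3 replicates thus placed their strongest peak at different positions. Like hmgs-1, hmgr-1 faces a divergent neighbour, the acetyltransferase gene eco-1, with 402 bp between them, which shares the pooled peak. The signal of the hmgs-1 peak was 29.9 times that of the strongest pooled promoter peak among the other 9 genes, that of coq-3. With a window of 2000 bp upstream and 500 bp downstream, which takes in the nuo-3 peak for coq-3, it was 8.62 times. The nearest thresholded peak lay 17.8 kb downstream of the hmgr-1 start.

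**Figure D3:**
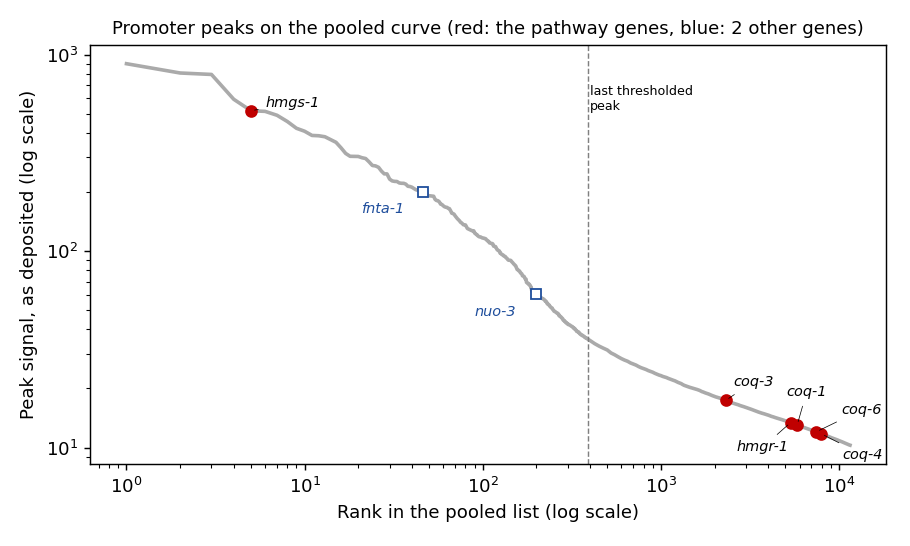
Signal of every pooled peak against its rank (grey line, both axes on log scales), with the strongest promoter peak of each gene of the group that has one in red and those of fnta-1 and nuo-3 in blue. The peak of hmgs-1 is on the steep left part at 519, and the 5 other red points lie on the flat right part between 11.8 and 17.4, beyond the dashed line at the last thresholded peak.

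Farnesyl diphosphate synthase, encoded by fdps-1 (WBGene00011058, chromosome I from 11917806 to 11923915, - strand), had no pooled promoter peak although each replicate held one. In replicate 1 it was the strongest replicate peak of any member but hmgs-1, with a signal of 15.4 at rank 483 and a −log10 q of 3.20, and lay 911 bp upstream in the 3′ UTR of wve-1. In replicate 3 it lay 427 bp upstream in intergenic sequence, with 7.99 at rank 1526 and a −log10 q of 2.05. In replicate 2 it lay 41 bp downstream of the start in a coding exon of fdps-1, with 3.27 at rank 20453. The 3 replicate peaks were at 3 separate positions. The nearest pooled peak had its summit 258 bp downstream of the start in an intron of fdps-1, just outside the window, with a signal of 10.6 at rank 10675. The nearest thresholded peak lay 6.78 kb upstream in the promoter of R06C1.4, with a signal of 86.2.

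The side chain genes had low peaks. At coq-1 (WBGene00000761, chromosome I from 5412841 to 5415629, - strand), whose product makes the polyprenyl chain, the pooled peak had a signal of 13.0 at rank 5822, 28 bp upstream of the start. Replicate 1 had a peak 16 bp upstream with 6.01 at rank 6454, and replicates 2 and 3 had none in the window. At coq-2 (WBGene00000762, chromosome III from 6935967 to 6939457, + strand), the prenyltransferase gene, the pooled list had none in the window. A pooled peak with a signal of 15.8 at rank 3120 had its summit 276 bp downstream in a coding exon of coq-2. Replicate 3 had peaks 51 bp upstream (4.78, rank 7850) and 174 bp downstream (4.36, rank 9912), replicate 2 had a peak 623 bp upstream (3.36, rank 19668) and replicate 1 had none. All of these lay in a window shared with F57B9.8. At neither gene did the 3 replicates share a position.

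The strongest pooled peak among the genes that modify the ring was that of the methyltransferase gene coq-3 (WBGene00000763, chromosome IV from 14793104 to 14796324, - strand). It lay from 14793510 to 14793939 with a signal of 17.4 at rank 2311, above the median for genes with a pooled promoter peak. Its summit fell 105 bp upstream of the innermost of 3 annotated starts, inside an intron of coq-3, in a window shared with gdi-1, which encodes a GDP dissociation inhibitor. Replicates 1 and 3 had summits within this peak, with 10.2 at rank 1326 and 5.07 at rank 6649. Replicate 2 did not, and its strongest peak in the window lay 443 bp upstream of the outermost start, with 4.88 at rank 9076.

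A thresholded peak lay just beyond the coq-3 window. Its summit was 1175 bp upstream of the outermost start, where the window ends at 1000 bp, and it covered 14797284 to 14797713 with a signal of 60.2 at rank 198. It is the promoter peak of nuo-3, which encodes a subunit of respiratory complex I and ends 94 bp before coq-3 on the same strand and its window also holds arl-8 and a further gene that overlaps nuo-3. The pooled summit fell 29 bp upstream of a nuo-3 start, in the 5′ UTR of nuo-3. Replicates 1, 2 and 3 had peaks with signals of 25.6 at rank 221, 12.5 at rank 468 and 24.6 at rank 163. In replicates 1 and 3 the summits were 38 and 3 bp from the pooled summit, and in replicate 2 the summit was 194 bp away. That replicate 2 summit was intergenic and nearer to the summit of a weaker pooled peak at nuo-3, with a signal of 15.9 at rank 3053. A copy of CGTAAA, part of CGTAAATCGACAC, started 8 bp from the pooled summit of the thresholded peak. These 13 letters stood at 48 of the 364 thresholded nuclear summits (13.2%) and in 63 of 19973 promoters (0.315%), and were searched for after the nuo-3 sequence had been seen.

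**Figure D4:**
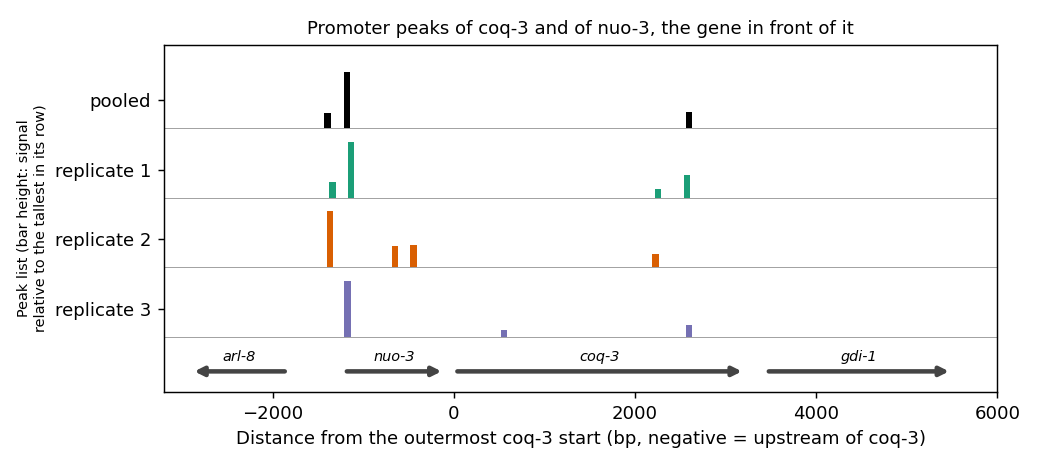
Summits of the promoter peaks of coq-3 and nuo-3 in the pooled list and each replicate, against the distance in bp from the outermost coq-3 start (negative is upstream), with bar height as signal relative to the tallest bar of the same row. In every row the tallest bar stands near the starts of nuo-3, more than 1000 bp upstream of coq-3, and the bars inside coq-3 are lower.

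The remaining ring genes had no peak that their replicates shared closely. At coq-6 (WBGene00000766, chromosome V from 9336762 to 9338858, + strand), the monooxygenase gene, the pooled peak had a signal of 12.02 at rank 7444. Its summit lay 957 bp upstream in an intron of ucp-4, and no replicate summit fell inside it. Replicate 3 had a peak 521 bp upstream (4.01, rank 12016), and replicates 1 and 2 had none. At clk-1 (WBGene00000536, chromosome III from 5277894 to 5279344, + strand), whose mutants are known for slowed development and long life, the pooled list had none. Replicate 2 had a peak 34 bp upstream (5.19, rank 7678), replicate 1 one 685 bp upstream (2.98, rank 26048), and replicate 3 had none.

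The 2 genes tied to the enzyme complex also had weak peaks. At coq-4 (WBGene00000764, chromosome I from 3869214 to 3870114, + strand) the pooled peak had a signal of 11.8 at rank 7933, with a summit 409 bp upstream in a coding exon of the glycolysis gene pgk-1. Replicate 3 had a summit 17 bp from it (5.87, rank 4315), replicate 1 had one in the 3′ UTR of pgk-1 (2.92, rank 26828), and replicate 2 had none. At coq-8 (WBGene00000767, chromosome III from 4863427 to 4866948, + strand) replicate 2 alone had a promoter peak, 864 bp upstream with a signal of 2.78 at rank 25846, in a window shared with C35D10.10. The nearest pooled summit lay 3.88 kb and the nearest thresholded summit 106 kb from the coq-8 start.

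The members differ in what lies in front of them. Of the 10 genes, 6 follow a gene on the same strand by less than 500 bp. These are coq-2 behind byn-1 and inf-1, coq-3 behind nuo-3, coq-4 behind pgk-1, coq-6 behind ucp-4, coq-8 behind C35D10.5 and clk-1 behind toc-1. The first gene of the run had a thresholded promoter peak at nuo-3 alone. At ucp-4, an uncoupling protein gene, a pooled peak of signal 21.2 at rank 1286 lay 994 bp upstream in an intron of acl-14. At toc-1 the pooled peak had 10.5 at rank 10912, and inf-1, pgk-1 and C35D10.5 had none. Whether the genes of these runs are transcribed together is not given in the lists used here.

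The wider pathway was described by a list of 29 further genes, of which 22 were matched by symbol. A thresholded promoter peak was found at 1 of the 22, beside 2.05% of all protein-coding genes, and a pooled one at 7, beside 21.6%. In replicates 1, 2 and 3 there were 12, 8 and 10 genes with one, beside 39.3%, 37.4% and 40.8%. The thresholded peak was that of fnta-1, the gene for the alpha subunit of the enzymes that attach isoprenoid chains to proteins. It lay on chromosome IV from 240352 to 240674, 231 bp upstream of fnta-1 in a window shared with the Golgi complex gene cogc-8, with a signal of 201 at rank 46. Replicates 1, 2 and 3 gave 96.2 at rank 39, 34.7 at rank 81 and 74.6 at rank 40. The fnta-1 summit had a copy of CGTAAA 4 bp away. The peak lies 13.1 kb from rcat-1, the gene whose tagged copy the strain carries as an insertion, and the part of that insertion in the signal was not tested.

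The 6 other genes with a pooled promoter peak had weaker ones. The highest was scp-1, whose homologue SCAP escorts the sterol regulatory protein SREBP in mammals, with a signal of 22.8 at rank 1054 and a summit 87 bp from its start. Its replicate values were 9.94 at rank 1432, 5.75 at rank 5742 and 7.58 at rank 1831. The SREBP homologue sbp-1 itself had no promoter peak in any list. Mevalonate kinase, encoded by mvk-1, had a pooled signal of 16.3 at rank 2835. In the kynurenine pathway, which supplies the precursor of rhodoquinone in worms, tdo-2 had 15.99 at rank 3010 and kmo-1 had 12.3 at rank 6859, and afmd-1, kynu-1 and haao-1 had none in the pooled list. The ubiquinone methyltransferase gene coq-5, in a window shared with tomm-7 and ufm-1, had 11.7 at rank 7989, and the sulfide quinone oxidoreductase gene sqrd-1 had 10.6 at rank 10550. The isopentenyl diphosphate isomerase gene idi-1 had a peak in replicate 1 alone, with a signal of 8.26 at rank 2562.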

How the data were processed

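ChIP-seq of 3 biological replicates of L4 larvae was used as deposited. Per the deposited description files, the authors called peaks and background on each replicate's alignment against a control alignment and on the replicates pooled, and took the thresholded list from these by irreproducible discovery rate (IDR). No source used here names an aligner, a caller or an IDR cutoff, and the control alignment was not analysed here. A control shared by the replicates can add the same peaks to each list. The deposited signal and the deposited −log10 q value of each peak are the authors' own. The deposited summit offset (in bp) gave the summit. The 5 lists in ce11 were used and the 5 in ce10 were left out. Genes came from Ensembl release 115 without piRNA genes, coordinates are 1-based, and sequences were read from the RefSeq WBcel235 genome.

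A replicate supported a peak when a summit of its 1950 strongest peaks fell inside. The members, the other pathway genes, the motifs and the rules were chosen with earlier results of these data known. Named are the 10 members, genes sharing their strongest thresholded or pooled promoter peaks, listed pathway genes with a pooled promoter peak, and the 3 genes nearest to hmgs-1 in log10 rank. Other genes were chosen after their values were seen. Alternatives varied the window, the starts, the list length, the support rule, the replicates and the sequence flank. With 1 group no test was made. Scripts in Python 3.11.15 (pandas 2.3.3, numpy 2.4.6, matplotlib 3.10.9) were tested on simulated data.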

Additional observations from a re-analysis of the deposited data

How the results depend on the processing

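The number of members with a thresholded promoter peak was 1, and it stayed 1 with a window of 500 bp upstream to 100 bp downstream, with the outermost start of each gene alone and with the 195 strongest thresholded peaks. It was 2, with coq-3 added through the nuo-3 peak, under 3 settings: a window of 2000 bp upstream to 500 bp downstream, overlap of the peak interval with the window, and windows round all genes of a same-strand run, the last chosen after seeing the data. It was 0 when a peak counted for the nearest start alone, since the start of F25B4.4 is nearer than that of hmgs-1 (137 against 147 bp). The number with a pooled promoter peak was 6 and ranged from 4 to 8, apart from 1 among the 1000 strongest pooled peaks, a shorter list by construction. The hmgs-1 peak was supported by every replicate used under all 6 alternatives of that rule, with 1 member at the lowest and 1 at the highest when a replicate was left out. The thresholded list was taken from these replicates and hmgs-1 was chosen for its strong peak. This outcome was therefore set by the choice, and nothing is read from it. With 25 bp in place of 50 bp round the summit, 0 members held CGTAAA, since neither copy at hmgs-1 lies wholly within 25 bp, and with 100 bp 1 did. Of 11 recomputed pooled ranks 10 were unchanged, and that of coq-3 became 198 with the wider window. The signal of hmgs-1 over that of the next member, recomputed by a choice made after seeing the data, was 29.9 with the narrower window and 8.62 with the wider one. The narrower window leaves coq-6 without a pooled promoter peak and so without a rank. Outside hmgs-1, no pooled promoter peak of a member held a summit of all 3 replicates. At coq-3 replicates 1 and 3 had summits 28 and 1 bp from the pooled one, and replicate 2 had none inside. Without read counts the error of the peaks with low signal cannot be given.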
